A study of Mus musculus with 2 samples.

Results

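The intermediate filament genes examined here are Vim, Nes, Nefl, Nefm, Des, Krt7, Krt8, Krt18, Krt19 and Lmna, 10 of the 34650 gene names with a probe on the array. Their 11 probes were found by matching the gene name of each non-control probe. The list was selected on the differences between these same arrays, so the members' differences between EpiSC and ELA-EpiSC are a description and carry no test. RNA was measured on 2 one-colour microarrays, 1 per group, and both groups came from the mouse embryonic stem (ES) cell line E14Tg2A of strain 129/Ola. EpiSC, epiblast stem cells, were ES cells given FGF2 at 12 ng/mL with Activin A at 20 ng/mL, in defined medium with N2 and B27 supplements. ELA-EpiSC received the same factors at the same doses, starting from epiblast-like aggregates (ELA), the floating clusters formed by ES cells after serum and LIF are withdrawn. The comparison asks how close the cells obtained through aggregates are to those obtained directly.

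Each RNA sample was a pool of 3 experiments on 1 cell line, so each group is 1 sample and the spread between cultures cannot be seen. The groups were taken from the sample titles, which match the descriptions and the molecule field. The source field names undifferentiated cells for both samples and an Argonaute immunoprecipitate for the EpiSC sample, and this conflict was not resolved. Of 7 pluripotency genes, 7 were detected on both arrays and 1 (Pou3f1) differed by 1 or more on the log2 scale. Among all genes past the minimum level given below, 4.54% were higher in ELA-EpiSC by as much and 4.46% lower. The count is thus not read as a result and does not settle the conflict of labels. The brightest Nanog probe differed by 0.32 and its others by -0.31 and 0.30. The pluripotency list holds general and primed genes and also Zfp42, a gene of the ground state. The only measure of error was technical: over 312 probes printed 10 times and detected on both arrays, spot pairs of 1 probe differed around their mean log2 difference with an SD of 0.10 (root mean square over probes). This spot SD covers spot noise, not labelling or culture.

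Intermediate filaments are the rope-like filaments of the animal cytoskeleton, built from rod-shaped proteins that pair as coiled coils, and the set a cell makes depends on its type. Type I and type II keratins pair with each other in epithelia, whereas vimentin and desmin form filaments alone in mesenchymal and muscle cells. Neurofilament proteins fill the axons of neurons, nestin marks neural and other progenitors, and lamins line the inner face of the nuclear envelope. Krt8 and Krt18 form the filament pair of simple epithelia and are among the first such genes of the mouse embryo, in trophectoderm and endoderm, while vimentin is typical of cells in culture and of cells that leave an epithelium.

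The sequences of 5 member probes are shown because family members resemble each other, and a probe that met several of them could not separate the genes. Each is given 5′ to 3′ in the sense of the transcript, at its mm9 position as deposited. Capitals mark the longest stretch that the probe shares, on either strand, with a probe of another name. Whether a probe lies in a coding or an untranslated exon was not analysed here, and the 6 other probes are not printed.

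Nefm, chr14:68738193-68738252, minus strand: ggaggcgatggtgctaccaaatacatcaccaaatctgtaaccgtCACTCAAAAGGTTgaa

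Krt19, chr11:100002392-100002451, minus strand: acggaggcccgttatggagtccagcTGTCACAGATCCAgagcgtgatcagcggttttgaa

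Krt7, chr15:101253718-101253777, plus strand: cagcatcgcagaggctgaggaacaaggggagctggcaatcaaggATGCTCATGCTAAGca

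Krt8, weaker probe, chr15:101828827-101828886, minus strand: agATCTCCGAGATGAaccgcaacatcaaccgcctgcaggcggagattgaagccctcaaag

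Lmna, chr3:88287262-88287321, minus strand: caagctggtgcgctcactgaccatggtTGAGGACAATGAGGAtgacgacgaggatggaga

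The capitals cover 13 to 15 of 60 bases. In the Lmna probe they match the opposite strand of the other probe. With probes of the other intermediate filament genes, members and the rest of the family alike, the 11 member probes shared a stretch of at most 8 to 10 bases. Only probes were compared and the transcripts were not searched. Whether a member probe also meets the transcript of another family gene is therefore not known from this comparison. The remaining probes lie at chr2:13504232-13504291 on the plus strand (Vim), chr3:87784303-87784362 on the plus strand (Nes), chr14:68705638-68705698 on the plus strand (Nefl), chr1:75363404-75363629 on the plus strand (Des), chr15:101862341-101862400 on the plus strand (Krt18) and chr15:101827138-101827197 on the minus strand (the brighter Krt8 probe). The 226 bases between the ends of the Des probe are longer than its 60 bases. Signals of different probes depend on their sequence, so levels of different genes were not ranked. Levels were set side by side only to choose the brightest probe of a gene and to sum marker lists. Such sums are weighted to bright probes.

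The 11 probes were detected on both arrays, and 0 of their 29 spots were saturated or flagged. Levels below are log2 of background-corrected, quantile-normalized intensity, and a difference is ELA-EpiSC minus EpiSC on that scale. Vim, the gene of vimentin, gave a raw spot intensity of 9832 in EpiSC and 60850 in ELA-EpiSC. Its level was 13.39 and 15.91 on these arrays, so that ELA-EpiSC exceeded EpiSC by 2.53 or 5.77-fold. Vim was thus the member with the largest difference, and 1.00% of all genes past the minimum level differed by more in either direction.

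Nes, which codes for the progenitor filament protein nestin, had a raw intensity of 4419 in EpiSC and 22190 in ELA-EpiSC. The normalized level went from 12.26 to 14.37, or 2.11 higher in ELA-EpiSC (4.31-fold). The difference was 24.8 spot SDs for Vim and 20.7 for Nes, and both genes were brighter in ELA-EpiSC. In a bulk RNA sample, more cells that express a gene and more RNA per cell cannot be told apart.

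Nefl codes for the light neurofilament chain, on which the other chains assemble. Its raw intensity was 7830 in EpiSC and 38600 in ELA-EpiSC, and its level 13.06 and 15.24, a difference of 2.18 (4.54-fold). Nefm codes for the medium chain, with a level of 8.12 in EpiSC against 9.25 in ELA-EpiSC, which is 1.12 apart (2.18-fold). The probe of Nefm was printed 10 times. Its raw spots ran from 202.5 through a median of 224.2 to 249.5 in EpiSC and from 533.6 through 632.4 to 733.8 in ELA-EpiSC. The spots of the arrays did not overlap, and the difference over the 10 spot pairs was 1.12 ± 0.15 (SD, n = 10 spots), higher in ELA-EpiSC in 10 of 10.

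Des, the gene of the muscle filament protein desmin, was also printed 10 times and was dim on both arrays. Raw spots ran from 97 through 115.9 to 138.5 in EpiSC and from 101.2 through 118.8 to 159.7 in ELA-EpiSC, over local backgrounds of 26.2 and 25.0. These ranges overlapped. The normalized level was 7.28 in EpiSC against 7.21 in ELA-EpiSC, with a difference of -0.07 ± 0.06 (SD, n = 10 spots). The raw signal was higher in ELA-EpiSC in 9 of 10 spot pairs and the normalized one in 1 of 10, so the sign of the Des difference rested on the scaling, and it was positive after scaling to the median or to spike-in RNA.

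**Figure D1:**
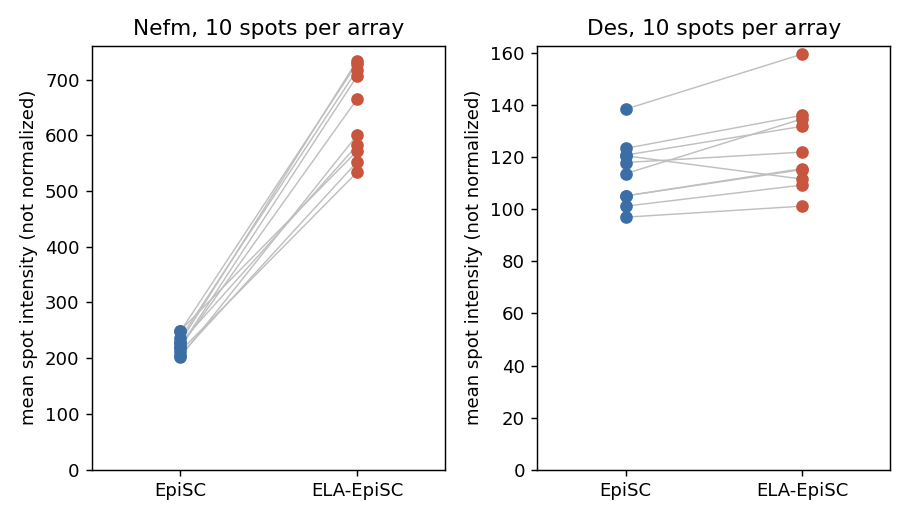
Mean spot intensity before normalization (vertical axis, from 0) of the 10 replicate spots of Nefm (left) and Des (right) on the EpiSC and ELA-EpiSC arrays, 1 array per group. Points are spots and lines join the same place on both arrays; the Nefm spots lie at 202.5 to 249.5 in EpiSC and 533.6 to 733.8 in ELA-EpiSC, whereas the Des ranges overlap.

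Among the keratins, Krt18, the type I partner of simple epithelia, gave a raw intensity of 162200 in EpiSC and 126500 in ELA-EpiSC. The level was 17.28 for EpiSC against 16.97 for ELA-EpiSC, hence a difference of -0.30. Krt8, its type II partner, has 2 probes. The brighter one, whose letters from base 33 are AATAAA, the usual signal near the 3′ end of an mRNA, gave raw intensities of 121500 in EpiSC and 109100 in ELA-EpiSC and levels of 16.86 and 16.77. Its difference of -0.09 lies within the spot SD. The weaker one gave raw intensities of 30510 and 21320 and levels of 14.91 and 14.31, a difference of -0.61, so the Krt8 probes had the same direction and unequal sizes. With spike-in RNA set equal between the arrays, Krt18 stood at 0.23 and the brighter Krt8 probe at 0.45, while the weaker one stayed negative at -0.07. Scaling to the 75th percentile of each array moved them the other way. It gave -0.65 for Krt18, -0.44 for the brighter Krt8 probe and -0.80 for the weaker one.

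Krt19, a small type I keratin of simple epithelia and progenitors, went the other way. Its raw intensity was 8257 in EpiSC and 23580 in ELA-EpiSC, and its level 13.14 and 14.46, a difference of 1.32. Krt7, a type II keratin of glandular and trophoblast epithelia, gave raw intensities of 1452 in EpiSC and 1361 in ELA-EpiSC, levels of 10.69 and 10.29 and a difference of -0.40, which turned to 0.14 with the spike-in RNA set equal. The simple epithelial keratins therefore did not move as a block between these arrays: Krt19 was higher in ELA-EpiSC under 11 of 11 other settings for background, scaling and spots, and Krt7, Krt8 and Krt18 were lower or near equal.

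Lmna, which codes for the A-type lamins of the nuclear lamina, had a raw intensity of 2211 in EpiSC and 4586 in ELA-EpiSC. Normalized, it was at 11.28 in EpiSC against 12.04 in ELA-EpiSC, 0.76 higher (1.69-fold). This was 7.45 spot SDs and short of the threshold of 1. The B-type lamins, which most cells make, were read on their own probes: Lmnb1 had levels of 13.92 and 14.51, differing by 0.59, and Lmnb2 levels of 10.72 and 10.47, differing by -0.25, which turned to 0.29 with spike-in scaling.

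**Figure D2:**
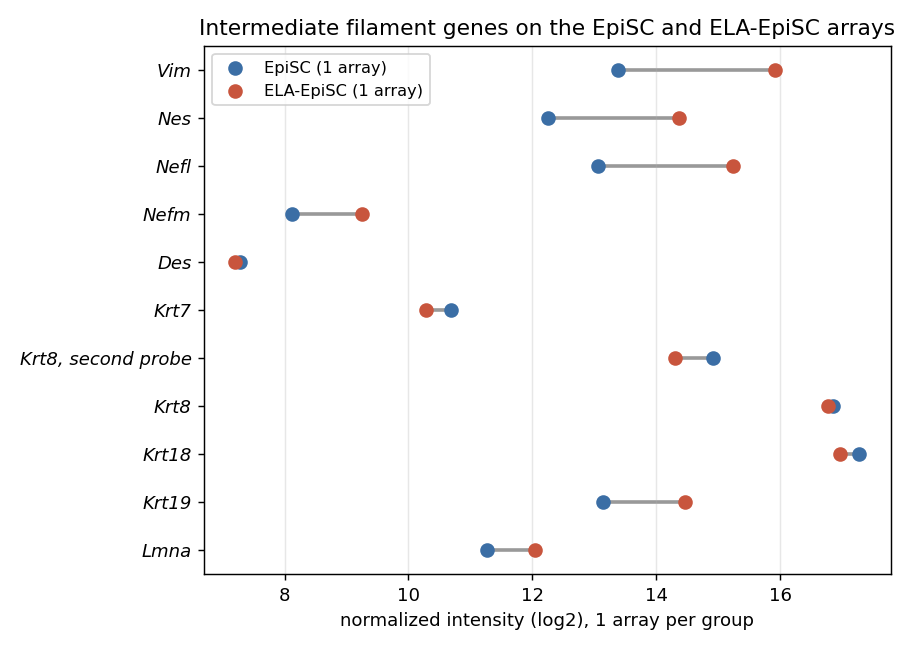
Normalized log2 intensity (horizontal axis) of the 11 probes of the intermediate filament genes on the EpiSC array (blue) and the ELA-EpiSC array (red), 1 array per group, with a line joining both values of a probe. Vim, Nes, Nefl, Nefm, Krt19 and Lmna lie further right in ELA-EpiSC, whereas Des, Krt7, Krt8 and Krt18 lie within 0.61 of equality; levels of different probes cannot be compared.

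A difference counted as past the threshold at 1 or more in size, that is at least 2-fold, where the mean level was at least 7.5; 9 of the 10 members passed this minimum and Des did not. Of these 9, 5 were higher in ELA-EpiSC (Vim, Nes, Nefl, Nefm and Krt19) and 0 were lower. Among all 16649 genes that passed the same minimum, 4.54% were higher and 4.46% lower. Since the members were picked for these differences, nothing is read from the gap between their count and this background. Nefm at 1.12 was the member just inside the threshold and Lmna at 0.76 the one just outside. The median difference of the 9 members was 1.12, beside 0.0014 for all genes. On the brightest probe of each gene, the difference was at least 2 spot SDs in 8 of 10 members and smaller in Des and Krt8. The smallest of the 8 was that of Krt18, at 2.99 spot SDs, and 46.2% of all genes past the minimum differed by more. This count is thus not read as a result about the members. The weaker Krt8 probe differed by 5.96 spot SDs.

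**Figure D3:**
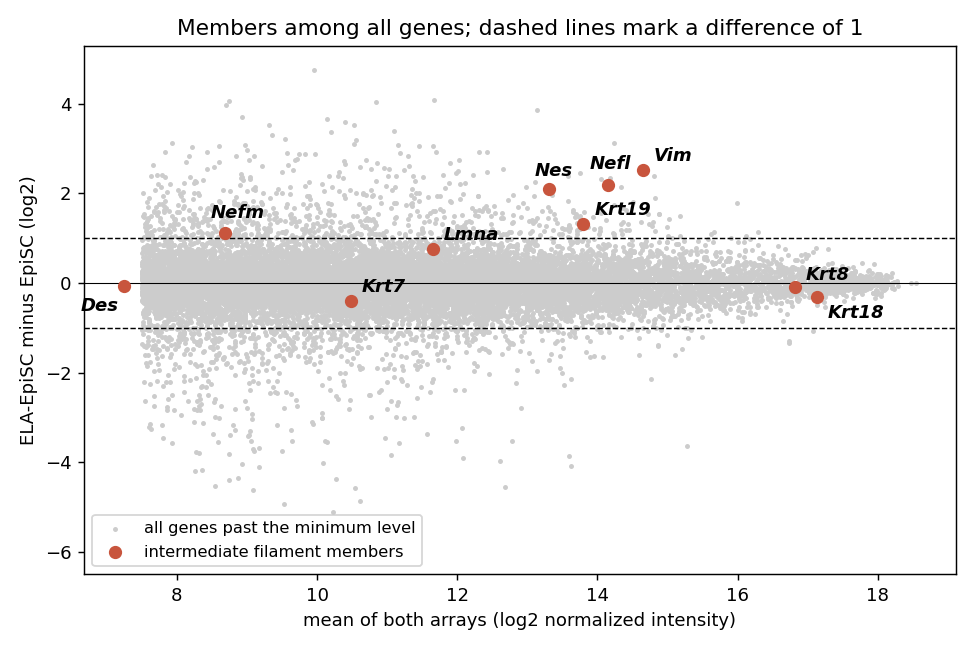
Difference ELA-EpiSC minus EpiSC (log2, vertical axis) against the mean of both arrays (log2, horizontal axis), with the 16649 genes of mean level 7.5 or more in grey and the 10 intermediate filament members in red. Dashed lines mark a difference of 1; Vim at 2.53, Nefl at 2.18, Nes at 2.11, Krt19 at 1.32 and Nefm at 1.12 lie above the upper line, and Des lies left of the grey points because its mean is under the minimum.

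Scaling to spike-in RNA moved every member by the same amount, whereas other scalings moved them unequally. Of 10 spike-in probes, which report RNA added to both samples, 8 were detected on both arrays, and 8 of those 8 were lower in ELA-EpiSC, by a mean of 0.54 on the normalized scale. Setting them equal adds 0.54 to every difference, so that all genes together shift by the same amount and the values relative to them stay as they are. The difference of Vim lay between 2.34 and 3.06 over the 11 alternative settings, that of Nefl between 1.99 and 2.72, that of Nes between 1.96 and 2.64, that of Krt19 between 1.22 and 1.86 and that of Nefm between 1.08 and 1.66. These 5 genes passed 1 under each of those settings. Lmna lay between 0.64 and 1.30 and passed 1 with the spike-in RNA set equal.

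**Figure D4:**
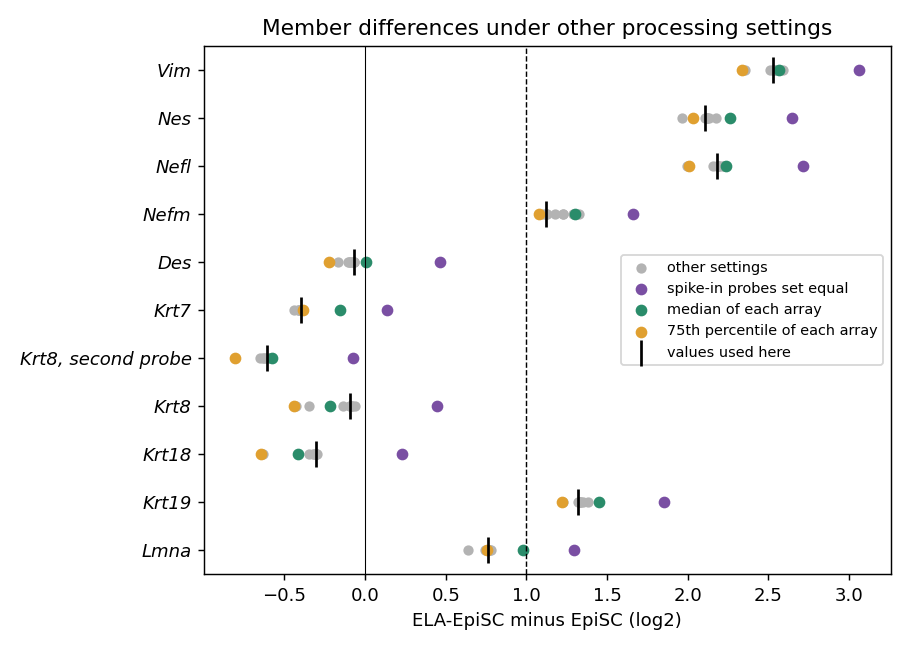
Difference ELA-EpiSC minus EpiSC (log2, horizontal axis) of each member probe under the settings used here (black bar) and under other settings for background, scaling and spot summary (points), with a dashed line at 1. Vim, Nes, Nefl, Nefm and Krt19 stay right of the dashed line at every point, and spike-in scaling (purple) puts Des, Krt7, Krt18 and the brighter Krt8 probe right of 0.

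The rest of the family was read from a list of 48 other keratins and 10 other genes. Of these 58 genes, 37 were detected on both arrays, 3 on 1 array and 18 on neither, and 19 passed the minimum. Past 1, 1 of the 19 was higher in ELA-EpiSC and 2 were lower, with a median difference of -0.02. Among all genes past the minimum, 4.54% were higher and 4.46% lower, so these counts are not read as a result about the family. The gene with the largest difference was Nefh, which codes for the heavy neurofilament chain. The level of Nefh was 11.57 in EpiSC against 8.56 in ELA-EpiSC. The difference was -3.00, an 8.03-fold higher signal in EpiSC, and the other Nefh probe gave -1.87. The chains of the neurofilament therefore differed in opposite directions between these arrays, Nefl and Nefm being higher in ELA-EpiSC and Nefh lower. The difference of Nefh lay between -3.31 and -2.47 over the alternative settings.

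Other filament genes of neurons differed by less than 1. Ina, the gene of alpha-internexin, had levels of 10.02 and 10.19, which differ by 0.18, and Prph, the gene of peripherin, levels of 7.39 and 7.97, a difference of 0.59. Synm, the gene of synemin, which joins filaments of vimentin and desmin, differed by 0.41 at its brightest probe and by -0.07 to 0.35 at its 4 others. The glial filament gene Gfap was under the minimum level, at 7.09 and 6.76.

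Among the other keratins, 13 of 48 passed the minimum. Krt42, a type I keratin gene, had a level of 10.91 in EpiSC against 12.10 in ELA-EpiSC, 1.19 higher, and its other probe was not above background. The brighter probe lies 126 kb from that of Krt19, the member of the same type I cluster on chromosome 11, with Krt14, Krt16 and Krt17 between them at -0.47, 0.15 and 0.15. Krt10, a keratin of the upper epidermis, differed by -1.08 at its brighter probe and by 0.90 at its other probe, so that its direction was not settled by these arrays. Epidermal Krt5 and Krt1 were under the minimum, with differences of -0.03 and -0.58.

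The proteins that anchor, process or hold intermediate filaments were read from a list of 34 genes, of which 31 passed the minimum. Past 1, 6 of the 31 were higher in ELA-EpiSC and 0 lower, beside 4.54% higher and 4.46% lower among all genes past the minimum. Their median difference was 0.39 beside 0.0014 for all genes. The partner list was chosen with earlier results of these data known, so nothing is read from this gap. Plec, the gene of plectin, which ties filaments to each other and to the cell surface, had a level of 12.85 in EpiSC against 14.44 in ELA-EpiSC, 1.59 higher. Dst, the gene of the related linker dystonin, differed by 1.16, and its 3 other probes gave 0.72 to 1.16. Perp, a protein of desmosomes, stood at 13.42 in EpiSC and at 14.82 in ELA-EpiSC. Of the other genes of desmosomes and plakins, the keratin anchor Dsp differed by 0.56, with 0.26 at its other probe. The plakin genes Eppk1 and Ppl differed by 0.90 and 0.71, whereas Evpl differed by -0.15, Dsc2 by 0.02 and Pkp3 by 0.17. The 13 genes of this group past the minimum ranged from -0.15 to 1.59, with a median of 0.56.

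Small heat shock proteins that bind filaments were higher in ELA-EpiSC as well. Cryab, the gene of alphaB-crystallin, a chaperone of desmin and vimentin, had a level of 9.24 in EpiSC against 10.83 in ELA-EpiSC, 1.59 higher, and its other probe was 1.77 higher. Hspb1, another such chaperone, stood at 15.71 and 16.86, a difference of 1.15 that fell to 0.79 under the setting that lowered it most. At the nuclear envelope, 1 of 12 genes passed 1: Sun2, which links lamins to the cytoskeleton, had levels of 11.61 and 12.84, 1.24 apart. Its relative Sun1 differed by -0.19, the lamin processing protease gene Zmpste24 by 0.23 and the B-type lamin receptor gene Lbr by 0.42, with -0.06 at its other probe.

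**Figure D5:**
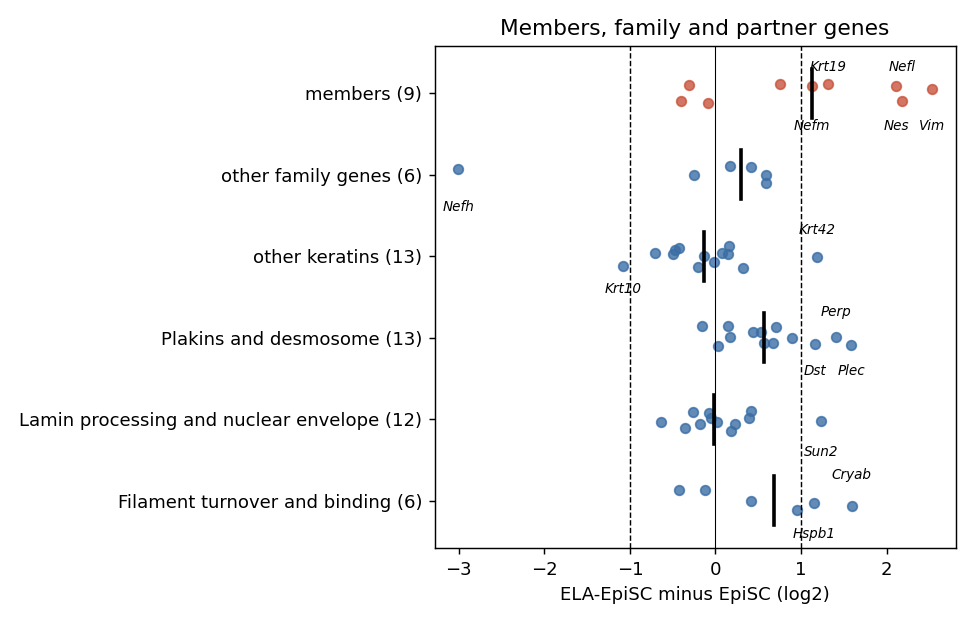
Difference ELA-EpiSC minus EpiSC (log2, horizontal axis) of the genes past the minimum level, for the members, the rest of the intermediate filament family and the 3 groups of partner genes, with the number of genes in brackets. Each point is a gene, black bars are medians and dashed lines mark a difference of 1; Nefh at -3.00 lies far from the other family genes, and the 6 named partner genes lie right of 1.

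Position on the chromosome was read as a shared feature that the list did not use. In the gene order of the RefSeq assembly GRCm38.p6, Nefl and Nefm are direct neighbours, and so are Krt8 and Krt18. On mm9 the probes of Nefl and Nefm lie 32.6 kb apart and differed by 2.18 and 1.12. Those of Krt8 and Krt18 lie 35.2 kb apart and differed by -0.09 and -0.30. Nes and Lmna share chromosome 3, with 503 kb between their probes. Within 200 kb of the Nes probe, 15 other genes passed the minimum, of which 0 were higher past 1 and 2 were lower, Insrr at -1.43 and Crabp2 at -1.02. Among all genes past the minimum, 4.54% were higher and 4.46% lower. Within 200 kb of the Lmna probe, 19 other genes differed by -0.81 to 0.57, and near Vim the 1 gene past the minimum, Trdmt1, differed by 0.71.

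Promoter sequence was available in RefSeq for 7 of the 10 members: Vim, Nes, Des, Krt7, Krt8, Krt18 and Lmna. The 250 bases before the start of Vim and of Nes are shown, since both genes were over 4-fold brighter in ELA-EpiSC, on the plus strand of GRCm38.p6 and with capitals for matches on either strand to TATAAA (the TATA box), CCAAT (the motif of NF-Y), GGGCGG (the motif of Sp1) or TGANTCA (the motif of AP-1). No match to one of these motifs overlapped another in the Vim and Nes stretches.

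Vim, chr2:13574061-13574310: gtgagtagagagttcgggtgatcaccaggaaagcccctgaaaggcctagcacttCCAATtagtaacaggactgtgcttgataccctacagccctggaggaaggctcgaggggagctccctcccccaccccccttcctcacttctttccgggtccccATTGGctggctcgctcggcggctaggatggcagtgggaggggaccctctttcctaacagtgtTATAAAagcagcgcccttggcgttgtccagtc

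Nes, chr3:87970843-87971092: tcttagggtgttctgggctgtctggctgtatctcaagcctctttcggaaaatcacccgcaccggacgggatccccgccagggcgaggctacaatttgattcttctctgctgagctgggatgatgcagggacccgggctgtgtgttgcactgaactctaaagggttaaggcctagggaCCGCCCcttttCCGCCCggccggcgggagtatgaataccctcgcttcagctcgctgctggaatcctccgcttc

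The Vim stretch held TATAAA beginning 32 bases before the start and CCAAT on each strand, 196 and 94 bases before it. The Nes stretch held none of these and 2 matches to GGGCGG on the minus strand, 73 and 62 bases before the start. Of the 7 member genes, 1 held TATAAA (Vim), 2 the NF-Y motif CCAAT (Vim and Lmna), 4 the Sp1 motif GGGCGG (Nes, Des, Krt7 and Lmna) and 0 the AP-1 motif TGANTCA, the Krt8 and Krt18 stretches holding no match. Lmna has 2 stretches, and GGGCGG and CCAAT lay in different ones. A gene was counted if any of its stretches held the motif, whereas the shares that follow are per stretch. Of all 32851 promoter stretches of this length, 12.4% held TATAAA, 33.8% CCAAT, 32.7% GGGCGG and 6.75% TGANTCA. Vim and Nes shared none of the 4 motifs in these windows.

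Markers of the cell types in which these filaments are typical were read beside them. The marker lists were chosen with earlier results of these data known, so their counts are a description. Among all genes past the minimum, 4.54% were higher past 1 and 4.46% lower. Of 12 mesenchyme genes, 10 passed the minimum and 6 were higher in ELA-EpiSC past 1 (Twist2, Snai1, Snai2, Zeb1, Col1a1 and Pdgfra), with differences of 0.05 to 3.72 over the 10, so that their summed intensity was 5092 in EpiSC and 9370 in ELA-EpiSC. Twist2, Snai2, Zeb1 and Col1a1, at levels of 6.4, 7.2, 6.9 and 7.1 in EpiSC, passed the minimum only through ELA-EpiSC. The mesenchyme genes past 1 moved in the direction of Vim and Nes, and their part in it was not tested. Of 9 neural genes, 5 passed the minimum and 0 passed 1, with differences of -0.68 to 0.72 and summed intensities of 13340 and 14520. Most of both sums came from Stmn2, at levels of 13.51 and 13.58. Pax6 was not well above background in either sample, and Neurog2 and Dcx were so only in ELA-EpiSC, at levels of 6.28 and 6.24, close to the lowest detected level of 6.11. At the settings used here, the 5 neural genes past the minimum thus stayed within 1 while Nes, Nefl and Nefm were higher and Nefh lower. Over the alternative settings, Tubb3 rose to as much as 1.26 and Map2 to 1.13, and Elavl3 fell to -1.09. Sox1 and Stmn2 stayed within 1.

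Of 7 trophectoderm genes, 6 passed the minimum, of which 3 were lower in ELA-EpiSC past 1 (Gata3, Elf5 and Ascl2) and 1 was higher (Tfap2c), with summed intensities of 68170 and 37490. Most of both sums came from Gcm1, at levels of 15.67 and 14.97, whose 3 other probes differed by 0.83, -0.34 and -0.43. Elf5, at 6.92 in ELA-EpiSC, passed the minimum only through EpiSC. Of 11 endoderm genes, 8 passed it, of which 3 were lower past 1 (Gata4, Ttr and Amn) and 0 higher. Ttr had a level of 9.53 in EpiSC and was not well above background in ELA-EpiSC, so its difference is only a bound. The other 7 differed by -2.75 to 0.20, of which Amn, at 7.25 in ELA-EpiSC, passed the minimum only through EpiSC. The summed intensities of all 8, Ttr included, were 52830 and 32630. These are tissues that make Krt7, Krt8 and Krt18, which differed by -0.09 to -0.61 over their 4 probes. With spike-in RNA set equal, Krt7, Krt18 and the brighter Krt8 probe were positive. Krt19, another keratin of simple epithelia, was higher in ELA-EpiSC by 1.32. The part of such cells in these differences was not tested. Of 5 squamous genes, 4 passed the minimum and 3 were higher past 1 (Sfn, Lor and Perp, the last also among the desmosome genes), whereas Ivl, which defines the cornified cell, was not well above background. Of 8 muscle genes, 3 passed it and 2 were higher (Acta1 and Actc1), while Myog and Myf5 were not well above background and Des did not pass the minimum.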

How the data were processed

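RNA of EpiSC and ELA-EpiSC was read on 1 Agilent SurePrint G3 mouse array per group, after labelling of 50 ng per the labels. The authors' deposited scanner files, made with Feature Extraction 10.7.3.1 per the file headers, hold spot intensity on a linear scale with its local background and probe positions of mm9, not yet normalized. A table of log2 values, background-corrected and normalized by quantiles per the methods, was also deposited by the authors and served as an alternative. With limma 3.58.1 in R 4.3.3, the mean signal was corrected by normexp (offset 50, all spots), control and flagged spots (158 in EpiSC, 117 in ELA-EpiSC) were left out, and log2 values were quantile normalized and averaged over the spots of a probe. The offset shrinks differences where signals are dim, and a shift common to all genes cannot be seen after quantile normalization. The steps were tested on simulated data.

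Detection of a probe required the scanner software's above-background flag on a share of 0.5 or more of its spots, as held for 65.9% of 55681 probes in EpiSC and 65.0% in ELA-EpiSC. A gene took its brightest detected probe. With 1 array per group there is no p-value, and the number of arrays limits the precision. Genes were counted at a difference of 1 or more and a mean log2 of at least 7.5, sizes taken from the study's methods. Members and gene lists were chosen with earlier results of these data known. Named were every member, the family and partner genes past 1, those behind small counts, and others chosen after their values were seen. For the 10 members, 10 symbols matched the RefSeq table of GRCm38.p6, whose coordinates differ from mm9; protein sequences were not used here. Alternatives were 17 settings of background, scaling, spots, probes, filters and thresholds.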

Additional observations from a re-analysis of the deposited data

How the results depend on the processing

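No paired analysis was possible because with 1 array a group there is no replicate number to share. Of 131 values of the 11 member probes under alternatives, 5 changed sign: Des to 0.0033 after scaling to the median, and Des to 0.47, Krt7 to 0.14, Krt8 to 0.45 and Krt18 to 0.23 with spike-in RNA set equal, which adds 0.54 to every difference by construction. Scaling to the median moved the median difference of all genes to 0.15 and single members by unequal amounts, some up and some down. The count of members higher past 1 was 4 to 6, except 1 (Vim) at a threshold of 2.5, and 0 members were lower under any of the 17 alternatives. With spike-in RNA set equal, the genes higher past 1 numbered 3 in the family, 12 among partners and 2482 in all, and the lower ones 1 in the family and 306 in all, so that higher genes made up 89.0% of calls beside 50.5%; scaling to the median gave 68.3%, and 1 lower family gene, as did the mean of all probes. At 1.5-fold, higher genes numbered 3, 10 and 1846 and lower ones 1 among partners and 1823 in all. At 2.5, higher genes numbered 0, 0 and 67, and lower ones 1 in the family and 108 in all. A minimum of 9 left 481 lower genes. Leaving out an array leaves no comparison. The sign of Des rests on the scaling, the brighter Krt8 probe differs by less than the spot SD of 0.10, and differences between cultures cannot be seen at all.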
